A study of Mus musculus with 2 samples.

Results

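The genes described here encode 10 subunits of the Polycomb repressive complexes: Ezh1, Ezh2, Eed, Suz12 and Jarid2 of Polycomb repressive complex 2 (PRC2), and Ring1, Rnf2, Bmi1, Cbx2 and Cbx7 of Polycomb repressive complex 1 (PRC1). They were chosen by name, and all 10 were found among the 21774 protein-coding genes of the gene table. The data came from chromatin immunoprecipitation with sequencing (ChIP-seq) of H2AZ in neural progenitor cells, which the labels place in the brain of C57BL/6 embryos at embryonic day 13. One ChIP library against H2AZ and 1 input library made up the series, and the labels name no genotype or treatment for either. From a single list of H2AZ peaks 21546 were used, and the authors scored each. Neither group had replicates, so scores have no error and differences between them were not tested. The number of reads was unknown.

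PRC2 adds methyl groups to lysine 27 of histone H3, and PRC1 adds ubiquitin to histone H2A and compacts chromatin. Together they keep developmental genes silent, and in neural progenitor cells they hold back genes of later fates. H2AZ, the histone variant mapped here, replaces H2A in nucleosomes near the starts of many genes. The peaks show where H2AZ was found at the Polycomb genes themselves. They do not show where the Polycomb proteins bound, and they do not measure expression.

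A peak was counted at a gene end if at least 1 bp of it lay within 1 kb of an outermost boundary of the gene. By that count 8 of the 10 Polycomb genes had an end peak (80.0%, 95% exact Clopper-Pearson interval 44.4 to 97.5%, counting error only), against 55.4% of all protein-coding genes. Ring1 and Cbx7 had none. All 5 PRC2 genes and 3 of the 5 PRC1 genes had an end peak. Only Jarid2 also held an interior peak, away from both ends, a kind of peak that 13.8% of protein-coding genes held. Within 20 kb the same 8 genes had a peak, against 70.3% of protein-coding genes, and Ring1 and Cbx7 were among the 29.7% with none. These counts describe genes chosen with results of these data already known, so no test of the list was made.

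The annotated starts come from a set of RefSeq promoters (build GRCm38.p6) that covers 17492 of the 21774 protein-coding genes. It holds a start for 9 of the 10 genes and leaves out Cbx2, so no start of Cbx2 was used. Of those 9 genes, 7 had a peak within 1 kb of the start, against 55.3% of the 17492 protein-coding genes with a listed start. The sequences of 7 promoters are shown because they span the outcome at the gene start: Jarid2 with the highest score, Suz12, Ezh1 and Ezh2 with scores between, Bmi1 with the lowest, and Ring1 and Cbx7 without a peak. Each runs 5′ to 3′ along the gene's own strand, from 250 bases before the start through the first 30 transcribed bases, and CG dinucleotides, the sites of DNA methylation, are in capitals.
Jarid2 (chr13:44730524-44730803, plus strand): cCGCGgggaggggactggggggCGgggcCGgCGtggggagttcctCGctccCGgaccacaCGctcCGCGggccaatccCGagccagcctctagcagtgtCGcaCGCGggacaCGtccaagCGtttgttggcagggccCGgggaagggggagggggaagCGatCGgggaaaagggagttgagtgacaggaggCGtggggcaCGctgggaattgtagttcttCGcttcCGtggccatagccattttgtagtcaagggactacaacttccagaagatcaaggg
Suz12 (chr11:79992856-79993135, plus strand): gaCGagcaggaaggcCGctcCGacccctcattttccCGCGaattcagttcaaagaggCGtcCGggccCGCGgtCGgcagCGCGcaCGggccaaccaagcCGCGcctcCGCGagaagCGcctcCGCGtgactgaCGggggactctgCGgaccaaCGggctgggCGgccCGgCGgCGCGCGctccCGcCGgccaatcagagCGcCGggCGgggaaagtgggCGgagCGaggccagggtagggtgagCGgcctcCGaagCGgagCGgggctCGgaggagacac
Ezh1 (chr11:101226434-101226713, minus strand): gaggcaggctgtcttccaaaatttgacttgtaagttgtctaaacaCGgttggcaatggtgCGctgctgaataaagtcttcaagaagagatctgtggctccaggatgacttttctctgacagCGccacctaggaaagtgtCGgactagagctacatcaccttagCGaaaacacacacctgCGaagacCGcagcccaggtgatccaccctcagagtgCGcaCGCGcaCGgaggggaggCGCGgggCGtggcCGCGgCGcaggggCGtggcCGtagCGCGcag
Ezh2 (chr6:47595001-47595280, minus strand): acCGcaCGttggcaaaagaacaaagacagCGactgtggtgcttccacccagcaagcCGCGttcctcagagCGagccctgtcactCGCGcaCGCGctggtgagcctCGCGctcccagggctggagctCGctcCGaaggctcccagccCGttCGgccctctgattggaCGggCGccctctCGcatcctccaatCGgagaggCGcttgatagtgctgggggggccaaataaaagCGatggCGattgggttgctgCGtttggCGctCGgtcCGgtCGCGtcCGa
Bmi1 (chr2:18676768-18677047, plus strand): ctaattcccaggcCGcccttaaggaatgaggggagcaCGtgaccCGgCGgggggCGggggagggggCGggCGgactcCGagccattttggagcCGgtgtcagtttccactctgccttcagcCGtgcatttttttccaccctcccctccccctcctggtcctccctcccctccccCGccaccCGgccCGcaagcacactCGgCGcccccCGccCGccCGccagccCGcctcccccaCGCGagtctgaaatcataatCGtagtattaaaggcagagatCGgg
Ring1 (chr17:34024651-34024930, minus strand): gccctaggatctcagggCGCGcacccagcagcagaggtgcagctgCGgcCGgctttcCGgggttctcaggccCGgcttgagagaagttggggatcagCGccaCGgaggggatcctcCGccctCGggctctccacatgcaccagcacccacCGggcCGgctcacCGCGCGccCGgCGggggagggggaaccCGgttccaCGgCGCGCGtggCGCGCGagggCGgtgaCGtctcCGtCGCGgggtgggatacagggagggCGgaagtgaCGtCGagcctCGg
Cbx7 (chr15:79932617-79932896, minus strand): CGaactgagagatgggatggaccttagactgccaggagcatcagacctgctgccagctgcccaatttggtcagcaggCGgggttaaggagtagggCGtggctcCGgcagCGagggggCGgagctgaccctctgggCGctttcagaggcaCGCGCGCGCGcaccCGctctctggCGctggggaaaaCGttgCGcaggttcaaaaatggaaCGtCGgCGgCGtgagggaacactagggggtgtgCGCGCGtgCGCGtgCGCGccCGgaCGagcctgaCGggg

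Capitals run densely through both kinds of promoter. Ring1 held 34 CG dinucleotides in its 280 bases and Cbx7 held 30, so that only Suz12 held more than Ring1, and Cbx7 matched Ezh2. The 7 promoters with a peak held from 15 in Eed to 41 in Suz12, with 30 in Ezh2, 27 in Rnf2, 23 in Jarid2 and in Bmi1, and 21 in Ezh1. The Ring1 and Cbx7 promoters had more of them than 92.4% and 87.9% of the 21263 listed starts of protein-coding genes. Among listed starts with at least 30 CG dinucleotides, 79.4% had a peak within 1 kb, and among starts with 0 to 4 only 9.58% did. Of the 11595 listed starts with at least 10, 81.8% had a peak. All 9 Polycomb genes with a listed start held at least 15, and their 7 of 9 was not above that share. The Ring1 and Cbx7 promoters thus belonged to the class of starts that mostly had a peak.

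**Figure D1:**
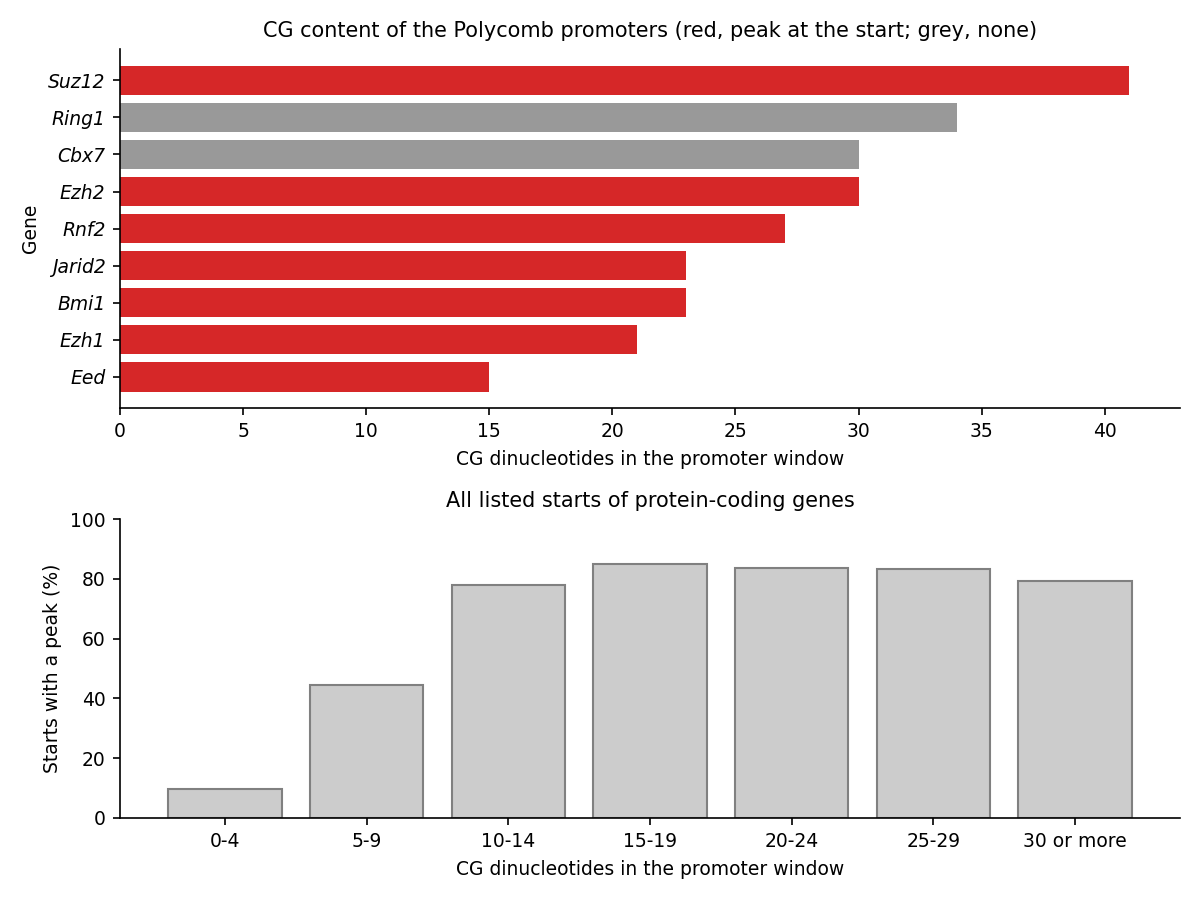
The upper panel gives the number of CG dinucleotides in the promoter window of each Polycomb gene with a listed start, in red where a peak lay within 1 kb of the start (7 genes) and in grey where none did (Ring1 and Cbx7). The lower panel gives the percentage of all listed starts of protein-coding genes with a peak within 1 kb, by the number of CG dinucleotides, which is 9.58% in the lowest class and between 77.9 and 85.1% in the 5 classes from 10 upwards.

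Short motifs were searched on both strands of the same windows, as a description of the letters and not of binding. The motifs were chosen after the sequences were seen. The shares given are over all listed starts, many of which hold fewer CG dinucleotides than any Polycomb window. The 2 are thus not alike in CG content. The E2F motif, spelled TTTGGCGC, TTTGCCGC, TTTCGCGC or TTTCCCGC, was present in 2.68% of all listed starts, and among the Polycomb genes it was in Ezh2 and Suz12. In Suz12 it read TTTCCCGC and lay 219 to 212 bases before the start; in Ezh2 it read TTTGGCGC and lay just after the start. E2F factors switch on genes of the cell cycle, and Ezh2 is a known target of them. The YY1 motif GCCATNTT was in 5.26% of listed starts, and in Jarid2 and Bmi1 it was present as GCCATTTT, 14 to 7 bases before the start in Jarid2 and 170 to 163 bases before it in Bmi1. The CCAAT box (CCAAT) was in 37.2% of listed starts and in Ezh2, Eed, Suz12, Jarid2 and Cbx7, with 3 copies in Ezh2. The GC box (GGGCGG) was in 45.1% of listed starts and in Suz12, Jarid2, Ring1, Rnf2, Bmi1 and Cbx7, with 6 copies in Bmi1, some of them overlapping. The NRF1 motif, searched as GCGC, 2 bases of any kind and GCGC, which reads the same on both strands, was in 8.11% of listed starts and in Ezh1, Ezh2, Rnf2 and Cbx7, and 2 of the 3 copies in Cbx7 overlapped. The ETS motif was searched only as CCGGAAG, which was present in 11.1% of listed starts and in no window of the 9 Polycomb genes. Other spellings of the ETS motif were not searched, so their absence is not shown.

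Among the PRC2 genes, Jarid2 stood first. Jarid2 encodes an accessory subunit that helps bring PRC2 to its targets. Its end peak had a score of 27.44, higher than 95.3% of the 12060 protein-coding genes with an end peak and higher than 97.4% of all peaks. The peak lay on chromosome 13 from 44729124 to 44732318, with its midpoint 53 bases before the outermost listed start, and it covered both starts listed for the gene. At 3195 bp it was wider than 96.7% of peaks. A second peak of score 9.55 lay inside the gene, from 44732708 to 44734808, only 389 bp beyond the edge of the first. After that pair no peak was listed in the rest of Jarid2, which at 190870 bp is the longest of the 10 genes. A small peak of score 5.52 lay 14211 bp before the gene. With 2 peaks over its length Jarid2 held 1.05 peaks per 100 kb.

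The core subunits Suz12 and Eed each had a single peak at the start and none elsewhere in the gene. Suz12 encodes the scaffold on which PRC2 assembles. Its peak had a score of 20.18, above 68.8% of genes with an end peak, and lay on chromosome 11 from 79991955 to 79994485. Eed encodes the subunit that reads methylated lysine 27 and stimulates the enzyme. Its peak scored 13.25, above only 26.6% of genes with an end peak, on chromosome 7 from 89979466 to 89982210. A higher-scoring peak of 17.44 lay 12435 bp from Eed, at the listed start of its neighbour Hikeshi. The nearest peak upstream of Suz12, of score 9.94, lay 17775 bp away at the non-coding gene Gm30875.

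The paralogues Ezh1 and Ezh2 encode the methyltransferase of PRC2, Ezh2 being the form that prevails in dividing cells. Both had an end peak, with a score of 19.99 for Ezh1 and 15.81 for Ezh2. Those scores exceeded 66.8% and 40.8% of genes with an end peak. The Ezh1 peak (chromosome 11, 101225292 to 101227133) was the narrower of the pair at 1842 bp, and the Ezh2 peak (chromosome 6, 47593648 to 47596156) spanned 2509 bp and also lay at an end of the non-coding gene F830010H11Rik. Their surroundings differed. Ezh2 had no other listed peak within 20 kb, and the nearest ones lay 138292 and 53554 bp from the gene. Ezh1 had 5 others within 20 kb, of which the peak of score 22.26 lay at an end of Ramp2, and 3 with scores of 12.37, 6.02 and 8.35 lay at ends of Plekhh3, Ccr10 and Cntnap1. The remaining peak, of score 6.48, ended 3868 bp before Ezh1, at no gene end.

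**Figure D2:**
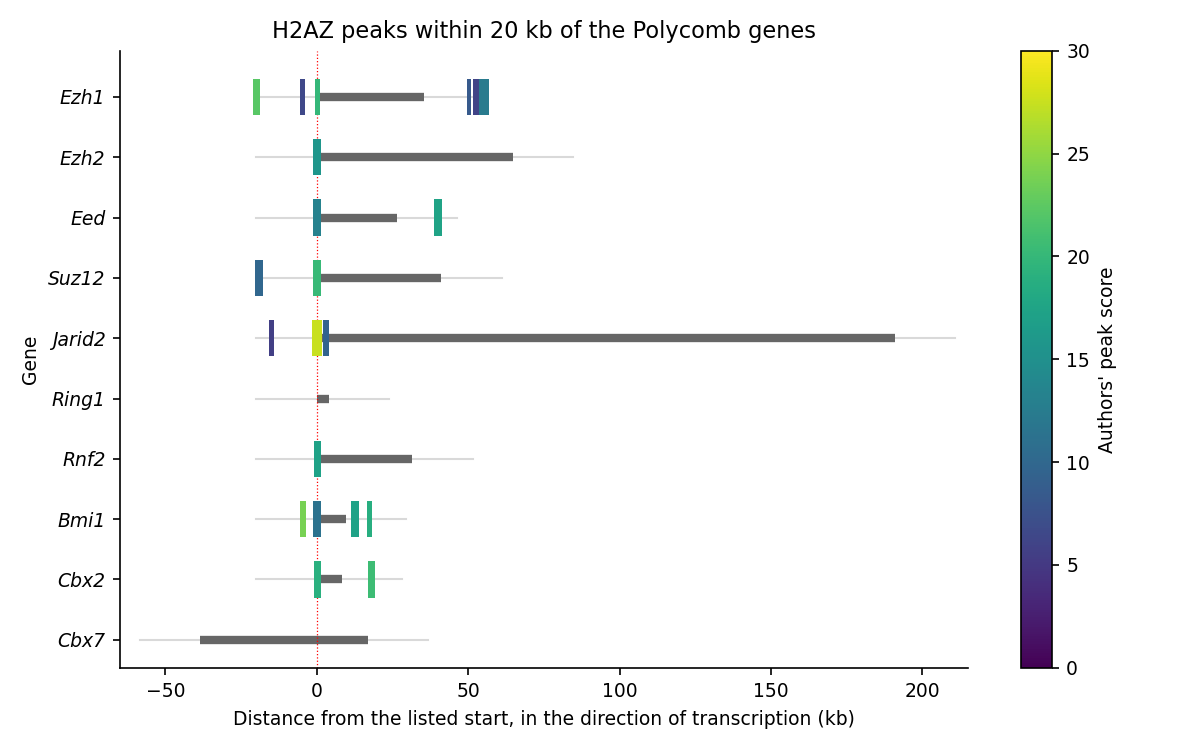
Each row is a gene, drawn in the direction of transcription from its outermost listed start at 0 (dotted line); the horizontal axis is distance in kb, the thick bar is the gene and the thin line its 20 kb flanks. Cbx2, without a listed start, is drawn from its low-coordinate end. Coloured blocks are the 21 listed peaks within 20 kb, with the authors' score by colour: 8 genes have a block at 0, Jarid2 has a second block beside it, and Ring1 and Cbx7 have none.

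Among the PRC1 genes the catalytic pair split. Rnf2 and Ring1 encode the RING-type ubiquitin ligases that modify histone H2A. Rnf2 had an end peak of score 17.3 on chromosome 1 from 151499622 to 151501870, above 50.6% of genes with an end peak, and no other peak within 20 kb. Ring1, on chromosome 17 from 34020792 to 34024680, had no peak at an end, inside it or within 50 kb. The nearest listed peaks lay 390546 bp away on one side and 6854474 bp away on the other.

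The absence at Ring1 was shared with its whole neighbourhood. Ring1 lies in the major histocompatibility complex, a region packed with genes. The stretch without a listed peak around it ran from 33630246 to 40879154, which is 7.25 Mb, and held 240 protein-coding genes. Of the 120 stretches of over 2 Mb without a listed peak, it held the most protein-coding genes. It held 251 listed starts, of which 111 had at least 10 CG dinucleotides; that none of them had a peak follows from how the stretch is defined. Whether reads could be placed there was not tested.

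Peak numbers gave a second view of what was called. The numbers in the peak names run to 32646, of which 66.1% are listed. The 46 peaks numbered after those of chromosome Y were out of order and were left out beforehand. Among the listed peaks that remained, the numbers followed position along every chromosome. A number that is skipped between neighbouring listed peaks thus marks a peak of the longer list that is not listed here, provided that the skipped ones keep the same order. In the 7.25 Mb around Ring1, 2 numbers were skipped. Among the other stretches of over 2 Mb without a listed peak, the count ran from 0, as in 5.19 Mb on chromosome 2, to 10, in 2.32 Mb on chromosome 4. A low count was thus not particular to Ring1. In 7 of the 10 genes, Eed, Suz12, Jarid2, Rnf2, Bmi1, Cbx2 and Cbx7, no skipped number could fall inside the gene or at its ends. In the other genes it could: 1 at Ezh1, in the 48.4 kb that precede its end peak along the chromosome and that hold most of the gene, 2 at Ezh2, in the 202 kb on that side, and 2 at Ring1.

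Bmi1 encodes the Pcgf subunit that partners the ligase in canonical PRC1, and it sustains the renewal of neural stem cells. Its end peak had the lowest score of the 8, 11.33, above 17.2% of genes with an end peak, on chromosome 2 from 18675901 to 18678292. The same peak lay at the 3′ end of the neighbouring gene Commd3. Bmi1 was surrounded by higher-scoring peaks: 23.86 at the listed start of Commd3, 3702 bp before Bmi1, 17.3 at the listed start of Gm46725, 1692 bp past it, and 18.79 at an end of Spag6, 7035 bp past it. Bmi1 had 4 peaks within 20 kb and Ezh1 had 6, an order that turned within 10 kb, where Bmi1 had 4 and Ezh1 had 2. Within 50 kb Ezh1 had 13, Cbx2 had 6 and Bmi1 had 4. With windows of 5 kb the highest end peak of Bmi1 was the Commd3 peak.

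Cbx2 and Cbx7 encode chromodomain subunits, which bind methylated lysine 27 and tether PRC1 to chromatin. Cbx2 had an end peak of score 19.09 on chromosome 11 from 119021949 to 119024229, above 61.7% of genes with an end peak and shared with an end of the non-coding gene Gm35829. Its neighbour Cbx8, which lies 5.03 kb away, had a peak of 20.58 at its listed start. Cbx7, on chromosome 15 from 79915804 to 79971143, had no listed peak at its ends, at its listed start or anywhere within 20 kb. Its listed start, at 79932646 on the minus strand, lies inside these boundaries and away from both. Counted from the boundaries and not from that start, the nearest listed peaks were 22974 bp away on the low side, with a score of 12.53. On the high side the nearest was 40749 bp away, with a score of 16.7. These 2 peaks have consecutive numbers and bound 119 kb. Unlike at Ring1, peaks were thus listed near Cbx7 on both sides, with no number skipped between them.

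**Figure D3:**
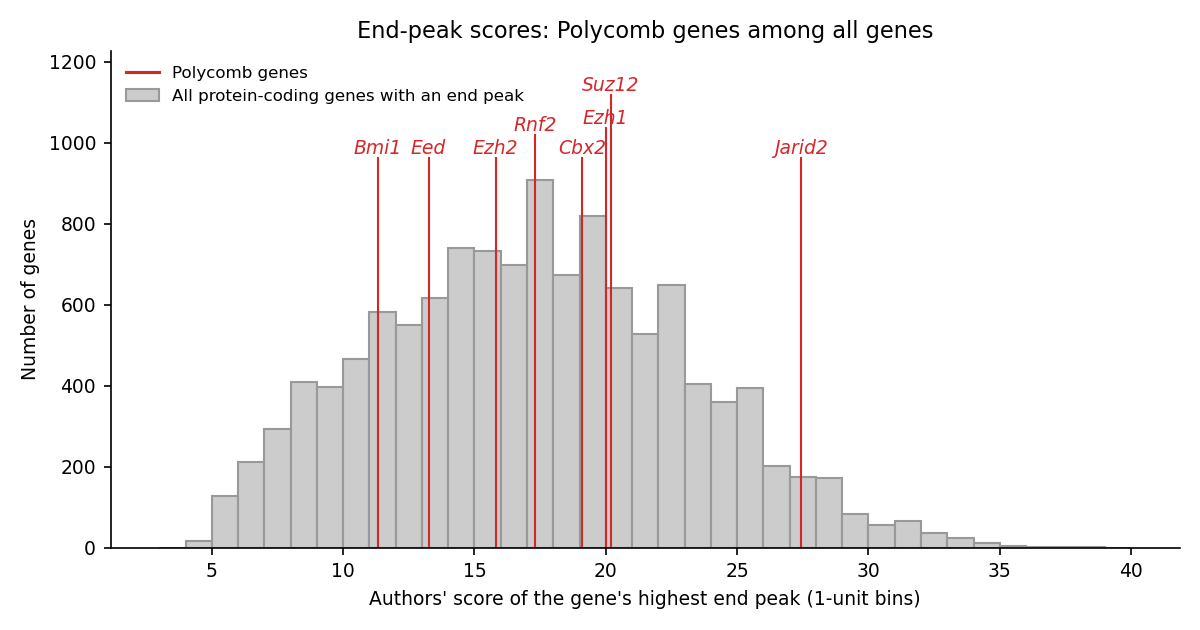
The grey bars count the protein-coding genes with an end peak by the authors' score of the gene's highest end peak, in bins of 1 score unit, and the red lines mark the 8 Polycomb genes with one. Bmi1 (11.33) is the lowest and Jarid2 (27.44) the highest, and the other 6 lie between 13.25 and 20.18.

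In order of score the 8 genes ran Jarid2, Suz12, Ezh1, Cbx2, Rnf2, Ezh2, Eed and Bmi1. Their median was 18.2, beside a median of 17.08 over all protein-coding genes with an end peak. Without replicates no neighbours in this order, such as Suz12 (20.18) and Ezh1 (19.99), can be separated. At or above the upper quartile of all scores (17.9) were 4 of the 10 genes, Jarid2, Suz12, Ezh1 and Cbx2, against 25.2% of protein-coding genes with an end peak that high. The 12 peaks in the flanks of the Polycomb genes had scores from 5.52 to 23.86 with a median of 14.8, so an end peak was not always the highest nearby: at Ezh1, Eed, Bmi1 and Cbx2 a flanking peak scored higher.

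The peaks sat over the starts. All 7 end peaks of genes with a listed start covered that start, and each contained the whole 280-base window. Their midpoints lay from 53 bases before the start, in Jarid2, to 251 bases after it, in Ezh1. Over 9230 protein-coding genes whose outermost listed start lay in a peak, the median midpoint was 52 bases after the start (quartiles -101 and 218 bases relative to the start). The Ezh1 and Rnf2 midpoints, at 251 and 245 bases after the start, were beyond the upper quartile. The peaks reached 670 to 1650 bases upstream, against a median of 1044, and 1171 to 1544 bases downstream, against a median of 1138. On the downstream side all 7 Polycomb peaks reached past that median.

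Further genes of the Polycomb system were described from a list of 38 that leaves out the 10 above. An end peak was present at 28 of them (73.7%), against 55.4% of protein-coding genes, with a median score of 18.34. These genes too were chosen by name with earlier results known, so the shares are a description and were not tested. Of the PRC2 core and partner genes 7 of 8 had one, of the PRC1 genes 14 of 21, of the DNA-binding genes 1 of 3, of the genes of the H2A deubiquitinase 4 of 4, and of the lysine 27 demethylase genes both Kdm6a (17.9) and Kdm6b (9.84). The highest scores belonged to Scmh1, a PRC1-associated gene (32.21), E2f6, a repressor of a variant PRC1 (29.53), the Bmi1 relative Pcgf1 (28.85) and the Polyhomeotic gene Phc3 (26.55). Scmh1, E2f6 and Pcgf1 had higher scores than Jarid2, and Phc3 had a lower one.

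Among the paralogues of Bmi1 and Cbx7 the scores were spread widely. Of the 6 Pcgf genes, which define the forms of PRC1, the end-peak scores were 28.85 for Pcgf1, 25.67 for Pcgf6, 19.09 for Pcgf2, 18.77 for Pcgf3 and 11.33 for Bmi1. Pcgf5 had no end peak, but a peak of 16.37 lay at a listed start inside its outermost boundaries. Of the relatives of Cbx7 the scores were 20.58 for Cbx8, 19.09 for Cbx2 and 12.53 for Cbx6, which lies 81.5 kb from Cbx7.

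The genes of the wider list without an end peak were Rbbp4, Pcgf5, Phc2, Yaf2, Scml2, Kdm2b, Auts2, Mga, Sfmbt1 and Sfmbt2. Of these, 5 held an interior peak, with highest scores of 17.9 in Kdm2b, 16.37 in Pcgf5, 14.62 in Scml2, 11.78 in Mga and 9.04 in Sfmbt2, and in all of them but Kdm2b a peak lay at a listed start. Counted at listed starts alone, 27 of 31 genes had a peak, against 55.3% of protein-coding genes with a listed start. Those without were Rbbp4, Phc2, Kdm2b and Sfmbt1. Of all listed starts with at least 10 CG dinucleotides, 81.8% had a peak. That share counts starts and not genes. The CG content of the wider list's promoters is not given here, so it is not a matched comparison. Rbbp4, a histone chaperone shared by PRC2 and other complexes, and Phc2 lie together in a stretch of 3.85 Mb on chromosome 4 without a listed peak. That stretch held 54 protein-coding genes and 41 listed starts with at least 10 CG dinucleotides. Auts2 lies in another stretch, of 2.6 Mb, which held 2 protein-coding genes. Yaf2 and Sfmbt1 had their nearest listed peaks 6763 and 2151 bp away, with scores of 20.28 and 25.12.

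**Figure D4:**
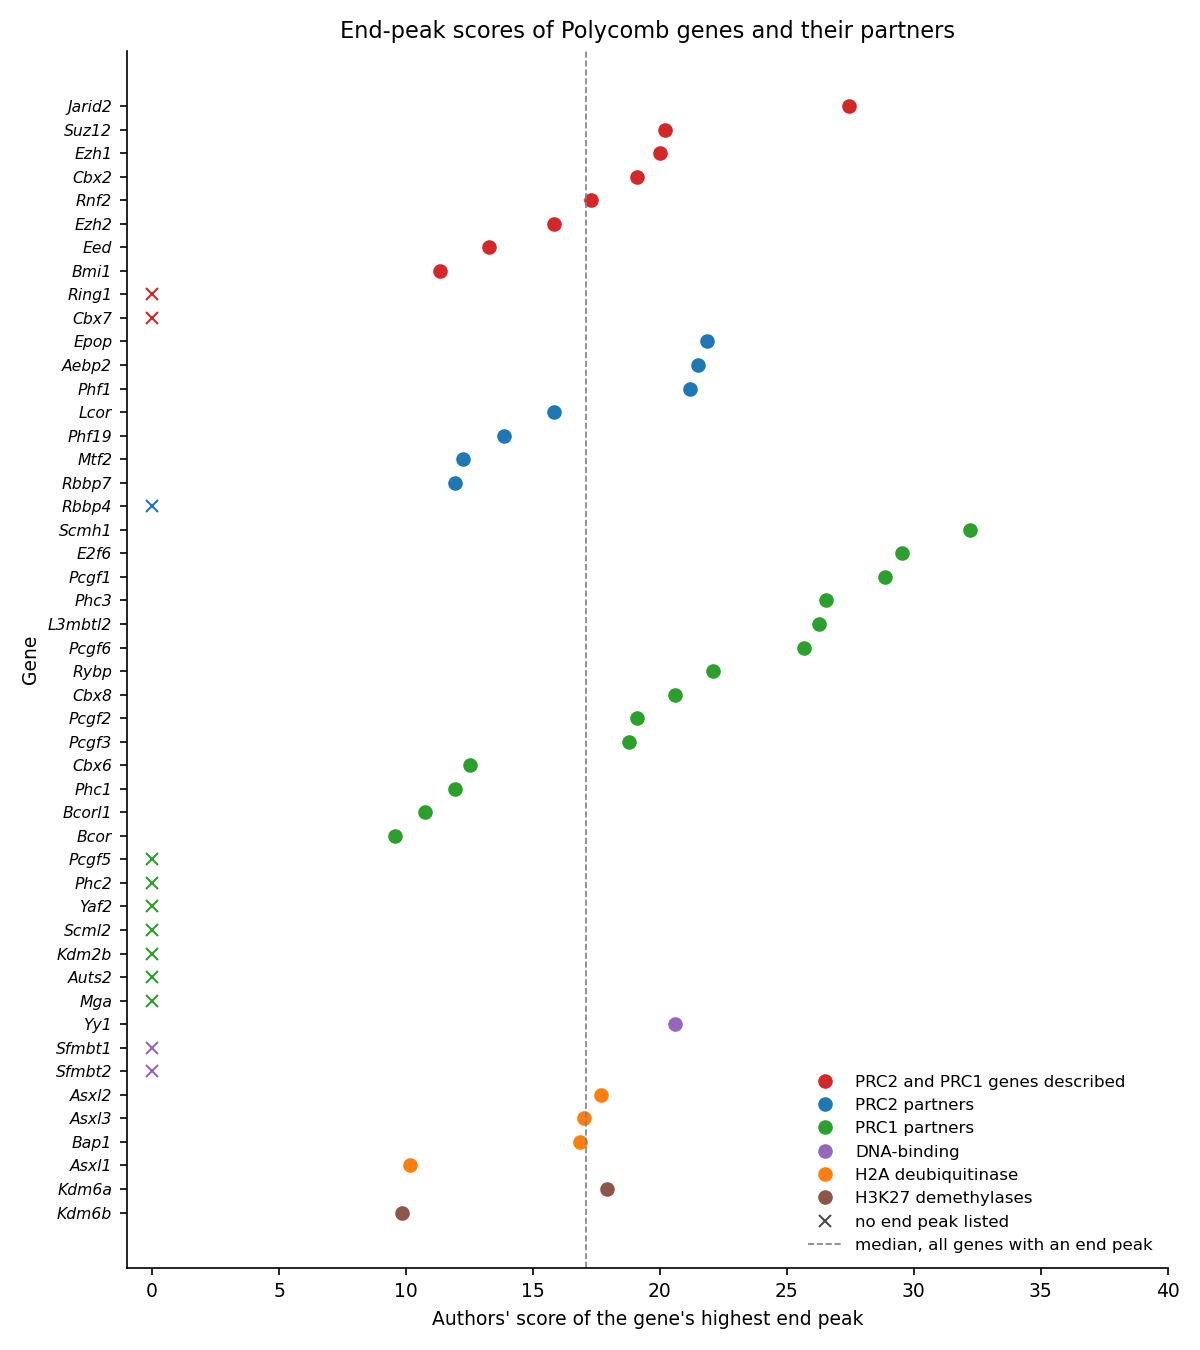
Each row is a gene and the horizontal axis is the authors' score of its highest end peak; colours separate the PRC2 and PRC1 genes described above (red) from the groups of the wider list, crosses at 0 mark genes with no end peak listed, and the dashed line is the median of all protein-coding genes with an end peak, 17.08. Scmh1 (32.21) is the highest, and 12 genes have a cross.

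The labelled cell type could be compared with marker genes only through peaks. Among 9 genes of neural progenitors 6 had an end peak, as did 1 of 3 neuronal, 1 of 3 endothelial and 0 of 2 blood genes, against 55.4% of all protein-coding genes. The progenitor genes without one were Sox2, Sox1 and Prom1. Counts this small and this near the share of all genes do not check the label. Peaks do not measure expression, and a bulk library cannot tell which cells carried them.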

How the data were processed

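The deposited file lists 21592 peaks without a header. Its score column holds a value that the authors gave each peak, of unstated meaning, used here only to rank and describe peaks. The other deposited columns used are positions, with starts counted from 0 and printed here from 1. Peak names carry MACS, per the deposited file, without version or settings. The submitters' processing notes name CASAVA 1.4, Bowtie2 2, FastQC and mm9. Positions were nevertheless read as GRCm38, since 51.6% of peaks were at protein-coding gene ends of the RefSeq GRCm38.p6 table, against 12.0 and 12.2% after shifts of 10 kb and 8.26 and 8.32% after shifts of 1000 kb. The 46 peaks numbered after those of chromosome Y were out of order and left out. A gene or stretch without a listed peak is therefore one with none among the peaks used.

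Strand, starts and promoters came from the RefSeq promoter table. An overlap was at least 1 bp. Of the wider list, 1 gene is not reported here and is in none of its counts. The members and lists were chosen with earlier results of these data known. Named genes are the 10 genes, wider-list genes without an end peak or among the 4 of highest score, and protein-coding genes with an end at a peak within 20 kb of a member; the non-coding genes at such peaks, the marker genes named, the Pcgf, Cbx and Kdm6 relatives, the interior values and the motifs were chosen after the values or sequences were seen. On simulated data 200 of 200 genes given an end peak were found, and 0 of 500 genes differed from a direct comparison. Python 3.11.15, numpy 2.4.6, pandas 2.3.3, scipy 1.17.1 and matplotlib 3.10.9 were used. Depth is unknown, and no enrichment over input was computed.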

Additional observations from a re-analysis of the deposited data

How the results depend on the processing

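The count of 8 Polycomb genes with an end peak held with windows of 500 bp, 2 kb and 5 kb and by peak midpoints, where the share of all protein-coding genes was 54, 57.3, 60.8 and 51.1%. With peaks at or above the median score it was 7, without Bmi1, against 44.4% of protein-coding genes. At listed starts it was 7 of 9, against 55.3% of protein-coding genes and 81.8% of listed starts with at least 10 CG dinucleotides. With peaks at or above the upper quartile of scores it was 4, while the wider list had 15 genes with an end peak, the share of all protein-coding genes was 25.2%, and 5 Polycomb genes had a peak within 20 kb. The interior count of 1 became 0 with peaks at or above the median score and 0 at or above the upper quartile. The median end-peak score was 19.54 with windows of 5 kb, since Bmi1 then took the Commd3 peak of 23.86. The Polycomb genes had 21 peaks within 20 kb in all and 41 within 50 kb, where Cbx7 gained 4 and Ring1 had 0. With peaks up to 500 bp apart merged, they had 19 within 20 kb. Jarid2 then had 2 in place of 3, and Ezh1 had 5 in place of 6. The interior peak of Jarid2, 389 bp from its end peak, is joined to the end peak by that merge. Leaving out the genes in stretches of over 2 Mb without a listed peak, an alternative chosen after seeing the data, can only raise the shares by its construction, so nothing is read from it. No paired analysis was possible because the only values came from 1 ChIP library. Depth is unknown, so a gene without a listed peak may carry H2AZ below what the list shows.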

Other observations

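The stretches around Ring1 and around Rbbp4 and Phc2 were not the only gene-rich ones without a listed peak. The 120 stretches of over 2 Mb held 1312 protein-coding genes (6.03%), of which 890 were not olfactory or vomeronasal receptor genes by symbol. On chromosome 17, the chromosome of Ring1, another ran from 27205574 to 29229062 and held 39 protein-coding genes in 2.02 Mb, with 0 skipped peak numbers. On chromosome 7 one ran from 31209391 to 34167576 and held 36 in 2.96 Mb, with 1 skipped number. The 2 stretches named here were chosen after their values were seen, and the cause was not tested.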
